A study of Mus musculus with 20 samples.

Results

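The expression of 10 genes that carry lipid into, through and out of myeloid cells was followed in eosinophils and macrophages sorted from mouse colon. The genes were Apoe, Abca1, Abcg1, Lpl, Fabp4, Fabp5, Plin2, Cd36, Trem2 and Gpnmb. They were chosen by gene name for their known roles, not by their values, and they are 10 of the 50600 gene names in the deposited tables. All mice were of the C57BL/6 strain and are called wild type (WT) in the growth protocol. The groups were eosinophils from colon tumors (n = 7) and from naive colon (n = 2), and macrophages from colon tumors (n = 6) and from naive colon (n = 5). The tumors followed a procedure that the labels name CAC, but its agents and timing, the ages of the mice and the sorting markers were not known from the labels. RNA was measured by CEL-Seq, which barcodes and counts the 3′ ends of polyadenylated transcripts. Whether the libraries of a group came from separate animals is not stated, so that p-values measure only the spread between these libraries, which may be technical.

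Depth ran from 1978466 to 8520874 reads in tumor eosinophils, 4452513 to 7469714 in naive eosinophils, 2289383 to 7636153 in tumor macrophages and 1477255 to 7945096 in naive macrophages. The 12 macrophage markers summed to 540 to 801 CPM (reads of the list per 1000000 reads) in tumor eosinophils and 670 to 888 CPM in naive eosinophils. They summed to 10435 to 14625 CPM in tumor macrophages and 10165 to 13998 CPM in naive macrophages, so the macrophage sorts carried these transcripts at a like summed level in both groups. The 11 eosinophil markers summed to 1013 to 10370 CPM in tumor eosinophils and 2442 to 2787 CPM in naive eosinophils, against 364 to 636 CPM in tumor macrophages and 208 to 397 CPM in naive macrophages. In the eosinophil sorts the 12 neutrophil markers summed to 4524 to 14212 CPM (tumor) and 6463 to 11514 CPM (naive), so transcripts named for neutrophils were abundant in the libraries labelled eosinophil. Their sum exceeded that of the eosinophil markers in every one of these libraries. The sums were closest in tumor library 4, at 12576 against 10370 CPM, and the medians in tumor eosinophils were 8568 against 1609 CPM. Within the eosinophil sorts 3 eosinophil markers (Siglecf, Il5ra and Ccr3) were called lower, and 3 neutrophil markers (S100a8, S100a9 and Ltf) higher, in tumor libraries. What part these differences have in the results on eosinophils was not tested.

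Marker calls differed within the macrophage sorts too. Of the 12 macrophage markers, 4 (Adgre1, Cx3cr1, Cd163 and Mrc1) were called lower in tumor macrophages and none higher. Of the 9 dendritic cell markers, 7 were called lower (Flt3, Xcr1, Clec9a, Batf3, Itgae, Siglech and Cd209a), although the summed list overlapped, at 109 to 294 CPM in tumor and 107 to 281 CPM in naive macrophages. Of the 6 monocyte markers, Ly6c2 and Ccr2 were called lower and Plac8 higher. The 12 epithelial markers held 5 called higher (Krt18, Krt19, Cdh1, Lgr5 and Cldn7) and 2 called lower (Slc26a3 and Car1), with sums of 917 to 1618 CPM in tumor and 337 to 2649 CPM in naive macrophages. The 12 T and NK cell markers summed to 100.49 to 212 CPM in tumor and 444 to 569 CPM in naive macrophages, without overlap, and 1 of the 4 tested (Cd4) was called lower, with Ncr1 at 0 in every tumor library. Of 5 mast cell markers tested, Mcpt1 and Mcpt2 were called higher. What part these differences have in the macrophage results, among them those on Cd36, Trem2 and Gpnmb, was not tested.

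Macrophages take up fatty acids and lipoprotein particles through scavenger receptors such as CD36 and after hydrolysis of triglyceride by lipoprotein lipase (Lpl). Fatty acid binding proteins (Fabp4, Fabp5) carry fatty acids through the cytosol, perilipin 2 (Plin2) coats lipid droplets, and the transporters ABCA1 and ABCG1 pass cholesterol to acceptor particles, among them those that hold apolipoprotein E (Apoe). Abca1, Abcg1, Apoe and Lpl are textbook targets of the oxysterol receptors LXR, while Fabp4, Cd36 and Plin2 are targets of the fatty acid receptors of the PPAR family. TREM2 is a lipid-binding surface receptor and GPNMB a glycoprotein of the endolysosomal membrane, and both mark lipid-laden macrophages in several tissues.

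The 10 genes lie on 7 mouse chromosomes. In the GENCODE annotation of GRCm38, Apoe spans chr7:19696109-19699188 and Lpl chr8:68880491-68907448. Abca1 spans chr4:53030787-53159895, on the same chromosome as Plin2 at chr4:86648386-86670060. Abcg1 spans chr17:31057675-31117988 and Trem2 chr17:48346401-48354147, while Cd36 spans chr5:17781690-17888801 and Gpnmb chr6:49036546-49070929. Fabp5 (chr3:10012548-10016607) and Fabp4 (chr3:10204088-10208576) are neighbours, 187480 bases apart with 4 protein-coding genes between them (Gm9833, Pmp2, Gm37389 and Fabp9). Those 4 genes had 1 read in all 20 libraries, a read of Fabp9. Abcg1 overlaps a small rRNA gene, Gm25447, on its own strand, and Fabp5 has a near relative, Fabp5l2, so their counts are uncertain to the extent that reads were shared.

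Promoter sequence was examined for the 6 genes with a start-site window in the RefSeq set of GRCm38.p6 (Apoe, Abca1, Plin2, Cd36, Trem2 and Gpnmb). Abcg1, Lpl, Fabp4 and Fabp5 had none. Each window holds 250 bases before and 50 bases after a transcription start, and 3 motifs were searched on both strands. These were the core of the direct repeat bound by LXR with its partner RXR (GGTNA, then 5 bases of any kind, then GGTNA again), the E-box CACGTG bound by the MiT/TFE family of lysosomal regulators among others, and the AP-1 site TGANTCA. None of the matches overlapped another motif. Shown are the stretches that hold a match in 3 genes that were higher in tumor macrophages, 5′ to 3′ on the gene's strand, with the matches in capitals.
Abca1 (chr4:53159926-53160045, minus strand): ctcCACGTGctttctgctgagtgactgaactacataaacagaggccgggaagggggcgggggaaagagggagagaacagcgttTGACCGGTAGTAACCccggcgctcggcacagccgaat
Gpnmb (chr6:49036418-49036537, plus strand): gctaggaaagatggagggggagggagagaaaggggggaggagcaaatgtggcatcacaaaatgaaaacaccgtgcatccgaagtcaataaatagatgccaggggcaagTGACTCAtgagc
Trem2 (chr17:48346301-48346420, plus strand): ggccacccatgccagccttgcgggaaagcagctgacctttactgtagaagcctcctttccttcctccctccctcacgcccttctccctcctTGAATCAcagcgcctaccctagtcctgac
The Abca1 stretch runs from base -150 to base -31 relative to the start site. Its first match is the E-box, at -147 to -142, and its second is the LXR repeat, which reads on the opposite strand at -67 to -53. Of 32851 promoter windows of this length, 236 (0.718%) hold that repeat and 2349 (7.15%) hold the E-box. The Gpnmb stretch holds an AP-1 match at 9 to 15, just after the start, and the Trem2 stretch holds one at -9 to -3, just before it, in stretches that run from base -100 to base 20. An AP-1 match was found in 2565 windows (7.81%). Plin2 holds an E-box at -4 to 2, and Apoe and Cd36 held none of the 3 motifs in these windows. These are matches of letters, not measured binding.

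In macrophages, 4 of the genes were higher in tumor libraries (Fabp5, Abca1, Gpnmb and Trem2), 2 were lower (Cd36 and Fabp4), and 4 did not pass the test (Apoe, Abcg1, Lpl and Plin2). In eosinophils, 3 were higher (Fabp5, Abca1 and Apoe) and none was lower. Fabp5 and Abca1 were thus higher in tumor libraries of both cell types. A gene was called at an adjusted p under 0.05 from limma on log2(value + 1) of the normalised reads, over all genes tested. All 10 genes passed the filter on low values in macrophages and 8 in eosinophils, where Cd36 and Trem2 did not reach 10 normalised reads in at least 2 libraries. Fabp4 passed in both cell types only through its naive libraries, and Fabp5 passed in eosinophils only through tumor libraries, so these were bound to differ. Of all genes tested, 17.1% were called in macrophages (8.5% higher, 8.59% lower) and 4.61% in eosinophils (2.42% higher, 2.19% lower). The median log2 difference was 0.44 over the 10 genes in macrophages and 0.46 over the 8 tested in eosinophils, against 0.03 and 0.01 over all genes tested in the same cells. The tumor and naive libraries did not overlap for the same 6 genes in macrophages, against 10.7% of all genes tested there (5.19% with every tumor library above, 5.47% below). In eosinophils they did not overlap for 5 of the 8 genes tested, with Apoe, Abca1, Fabp5 and Plin2 above and Fabp4 below, against 17.1% of all genes tested (7.33% above, 9.76% below).

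**Figure D1:**
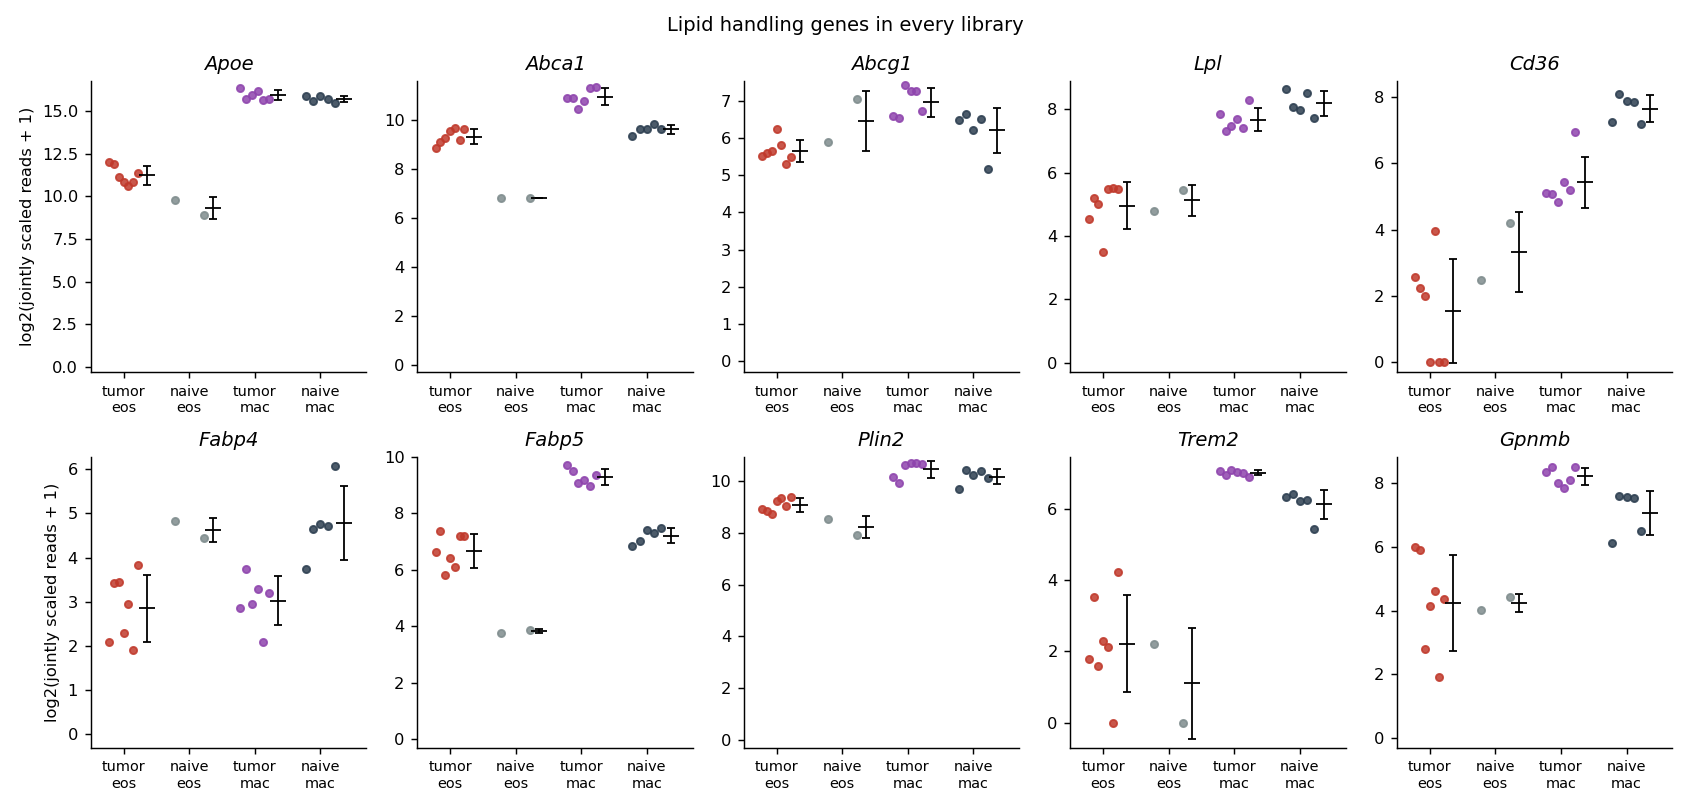
Jointly scaled reads of the 10 genes in every library on a log2(reads + 1) axis, in eosinophils (eos) and macrophages (mac), with tumor left of naive. Points are libraries, and the bar and whiskers are the mean ± SD of the log2 values. All 20 libraries were scaled together, so heights may be compared between cell types within a panel. Abca1 and Fabp5 lie apart in both cell types, Apoe lies apart in eosinophils and overlaps in macrophages, and Cd36 and Fabp4 lie lower in tumor macrophages.

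Among the genes of export, Abca1, the transporter that loads cholesterol onto lipid-poor apolipoproteins, was higher in tumor libraries of both cell types. In tumor eosinophils it had 290.25 to 551 normalised reads with a median of 454, and in naive eosinophils 70.2 and 77.3. Every tumor library lay above both naive ones, by a wide margin. The means were 442 ± 92.9 in tumor eosinophils (SD, n = 7) and 73.7 ± 5.01 in naive eosinophils (SD, n = 2), a fold of 5.81 (95% interval 3.72 to 9.05; log2 difference 2.54 ± 0.30 SE, limma adjusted p = 0.00142). In tumor macrophages it had 1094 to 2016 normalised reads with a median of 1552, against 553, 619, 673, 722 and 689 in naive macrophages. Again the groups did not overlap. This was a 2.39-fold difference (log2 1.26 ± 0.16 SE, limma adjusted p = 5.87e-05).

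Apoe, the apolipoprotein that macrophages secrete for lipid transport, differed in eosinophils but not measurably in macrophages. Tumor eosinophils had 1007 to 2625 normalised reads with a median of 1527, and naive eosinophils had 566 and 328. The log2 difference was 1.93 ± 0.38 (SE, limma adjusted p = 0.0148). Without naive eosinophil library 2, the lower of the naive pair, it was 1.54 and no longer called (adjusted p = 0.246). In tumor macrophages Apoe had 39799 to 70940 normalised reads with a median of 44761, against 52328, 39264, 50174, 41960 and 39143 in naive macrophages. These ranges lay on top of each other, with a log2 difference of 0.13 (95% interval -0.29 to 0.55, limma adjusted p = 0.706).

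Macrophage transcripts moved together with Apoe in the eosinophil sorts. C1qb, a complement subunit made by tissue macrophages, averaged 1056 ± 429 normalised reads in tumor eosinophils (SD, n = 7) and 234 ± 81.7 in naive eosinophils (SD, n = 2), a log2 difference of 2.1 ± 0.43 (SE, limma adjusted p = 0.0177). C1qc, its partner subunit, differed by 1.94 ± 0.42 (SE, limma adjusted p = 0.0218). Of the 12 macrophage markers 9 were tested in eosinophils, 2 of them (C1qb and C1qc) higher and 1 (Adgre1) lower in tumor libraries. The sum of the list did not follow: it was 540 to 801 CPM in tumor and 670 to 888 CPM in naive eosinophils, with Cd163 at 0 in the naive ones. Set against the mean of macrophages from the same kind of tissue, Apoe stood at 4.09% in tumor eosinophils (range 2.47 to 6.65%) and 1.26% in naive eosinophils. On the same measure tumor eosinophils stood at 6.81% for C1qb, 2.53% for C1qc and 1.77% for C1qa, and naive eosinophils at 1.42%, 0.67% and 0.60% for the same genes. The macrophage markers were not alike on this measure, since Csf1r, the receptor for the macrophage growth factor CSF1, stood at 20.97% in tumor eosinophils (range 12.9 to 26.7%) and 26.0% in naive eosinophils. Abca1 stood at 31.9% (range 22.8 to 39.8%) in tumor eosinophils and 14.0% in naive eosinophils, so its range overlapped that of Csf1r in tumor eosinophils and lay below it in naive eosinophils. Fabp5 stood at 16.9% in tumor eosinophils (range 8.55 to 26.0%) and 8.89% in naive eosinophils, and Plin2 at 38.0% in tumor and 26.2% in naive eosinophils. The part of macrophage RNA in the eosinophil values of Apoe, Abca1 and Fabp5 was not tested. More cells of a kind and more RNA per cell cannot be told apart in such bulk libraries.

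**Figure D2:**
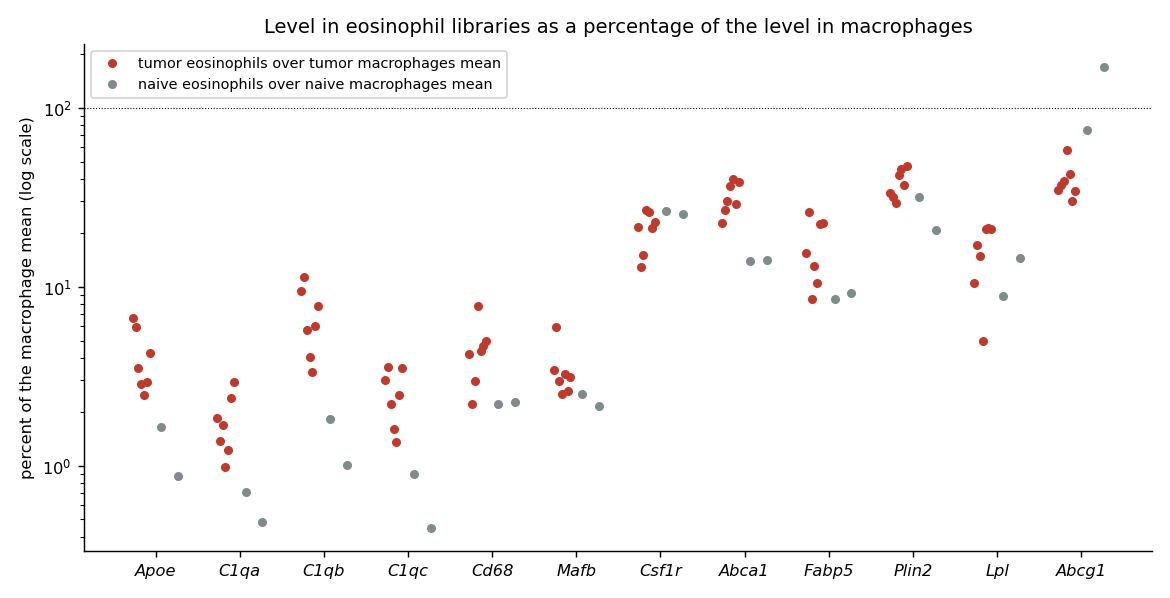
Level in eosinophils as a percentage of the mean level in macrophages from the same kind of tissue, after joint scaling, on a log10 axis. Points are eosinophil libraries, with tumor left of naive. Apoe lies among the C1q subunits, at 4.09% in tumor and 1.26% in naive eosinophils, while Abca1 lies at 31.9% in tumor and 14.0% in naive eosinophils and the macrophage marker Csf1r at 20.97% and 26.0%.

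Abcg1, which passes cholesterol to mature high-density particles, did not follow Abca1. It had 28.1 to 49.8 normalised reads in tumor eosinophils with a median of 31.6, against 37.1 and 91.8 in naive eosinophils. The naive libraries differed more from each other than any tumor library did from the lower of them. The log2 difference was -0.77 (95% interval -1.66 to 0.12, limma adjusted p = 0.331), and it was -0.13 without naive library 2. In tumor macrophages Abcg1 had 72.5 to 133 normalised reads with a median of 98.9, against 76.7, 79.0, 61.8, 71.7 and 30.4 in naive macrophages. Of the tumor libraries 5 lay above all naive ones, and the difference did not pass the test (log2 0.68 ± 0.25 SE, limma adjusted p = 0.0777).

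Of the genes of uptake, Cd36, the fatty acid and oxidised lipoprotein receptor, showed the largest fall of the 10 genes in tumor macrophages. It had 21.5 to 93.4 normalised reads there with a median of 27.8, against 130.2, 213, 197, 184 and 127 in naive macrophages. Tumor libraries 1 to 5 lay at 32.7 or below, and library 6 alone reached 93.4, still under every naive one. The log2 difference was -2.29 ± 0.31 (SE, limma adjusted p = 0.000114), which is 4.91-fold lower, and it was -2.59 without tumor macrophage library 6. In eosinophils Cd36 was close to the detection limit, with 27 reads over the 7 tumor libraries and 15 over the 2 naive ones. It was at 0 in tumor eosinophil libraries 4, 6 and 7, and a count of 0 allows up to 3 reads.

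Lpl, which splits triglyceride in lipoproteins, had 124 to 238 normalised reads in tumor macrophages with a median of 148. Naive macrophages had 341, 212, 212, 290 and 182. Of the 6 tumor libraries 4 lay below all naive ones. The log2 difference of -0.59 (95% interval -1.02 to -0.17) just missed the threshold (limma adjusted p = 0.0549), while it was called on the recovered reads by edgeR (adjusted p = 0.0465), DESeq2 (0.0292) and limma-voom (0.0476). It was also called without naive library 5 (limma adjusted p = 0.0363), tumor library 1 (0.0484) or tumor library 6 (0.0222). In tumor eosinophils Lpl had 6.87 to 34.4 normalised reads with a median of 23.7, against 16.8 and 30.2 in naive eosinophils, with full overlap (log2 difference -0.13, 95% interval -1.40 to 1.136).

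The cytosolic carriers Fabp5 and Fabp4, close neighbours on chromosome 3, went in opposite directions in macrophages. There Fabp4 passed the filter only through its naive libraries, so it was bound to be lower in tumor libraries. Fabp5 had 386 to 703 normalised reads in tumor macrophages with a median of 479, against 98.1, 102, 142, 124 and 155 in naive macrophages. The lowest tumor library had more than the highest naive one by a wide gap. Fabp5 was 4.03-fold higher (log2 2.01 ± 0.17 SE, limma adjusted p = 2.52e-06). In tumor eosinophils Fabp5 had 37.9 to 112 normalised reads with a median of 61.8, against 8.12 and 9.66 in naive eosinophils. Only the tumor libraries reached the filter's 10 normalised reads there, so Fabp5 was bound to differ. All 7 tumor libraries lay above both naive ones, which together held 22 reads of the gene. On the log2 scale they differed by 2.82 ± 0.48 (SE, limma adjusted p = 0.00647), and without naive eosinophil library 2 the adjusted p was 0.0714, as it was 0.186 by limma-voom with quality weights.

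Fabp4, the form typical of adipocytes, capillary endothelium and some macrophages, had few reads in all 4 groups. In tumor macrophages it had 2.51 to 9.67 normalised reads with a median of 5.76, against 10.7, 18.8, 21.9, 19.9 and 57.7 in naive macrophages. No tumor library reached the lowest naive one. The log2 difference was -1.81 ± 0.42 (SE, limma adjusted p = 0.00744), or 3.496-fold lower, and it was -1.47 (adjusted p = 0.0196) without naive macrophage library 5, which had the 57.7. In tumor eosinophils it had 2.04 to 9.29 normalised reads with a median of 4.37, against 17.4 and 14.5 in naive eosinophils. The groups did not overlap there either, and the difference did not pass the test (log2 -1.68, 95% interval -3.28 to -0.09, limma adjusted p = 0.228). In both cell types Fabp4 passed the filter only through its naive libraries, so it was bound to differ.

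Summed markers of other cell types were set beside Fabp4 in the same groups, and several of these sums overlapped. Of the 8 adipocyte markers only 1, Pck1, was tested, and it was called lower in tumor libraries of both cell types. The 8 adipocyte markers summed to 0 to 4.46 CPM in tumor macrophages and 4.07 to 22.1 CPM in naive macrophages, with Adipoq and Cfd at 0 in every tumor library. In eosinophils they summed to 3.60 to 10.5 CPM (tumor) and 19.6 to 23.7 CPM (naive), with Adipoq, Lep and Cfd at 0 in both naive libraries. The 10 endothelial markers summed to 43.9 to 76.1 CPM in tumor and 39.3 to 100.9 CPM in naive macrophages. In eosinophils they summed to 55.8 to 148 CPM (tumor) and 130 to 245 CPM (naive), so these sums overlapped in both cell types. The 10 stromal markers summed to 275 to 700 CPM in tumor macrophages and 757 to 3219 CPM in naive macrophages, with 5 of 9 tested markers called lower. In eosinophils the stromal sums overlapped, at 356 to 2168 CPM (tumor) and 804 to 1448 CPM (naive), and 0 of 10 tested markers were called. Naive macrophage library 5 held both the highest stromal sum and the highest Fabp4. Naive macrophage library 1 held the highest adipocyte sum of the macrophages (22.1 CPM) and the lowest naive Fabp4 (10.7 normalised reads). The part of these cell types in the Fabp4 values was not tested.

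Plin2, the coat protein of the lipid droplet, did not pass the test in either cell type. In tumor eosinophils it had 292 to 475 normalised reads with a median of 402, against 237 and 170 in naive eosinophils. All 7 tumor libraries lay above the naive pair, and the log2 difference of 0.86 ± 0.29 (SE) did not pass the test (limma adjusted p = 0.117), although DESeq2 called it on the recovered reads (adjusted p = 0.0297). In tumor macrophages it had 752 to 1275 normalised reads with a median of 1233, against 719, 1072, 1018, 1055 and 971 in naive macrophages. These groups overlapped (log2 difference 0.20, 95% interval -0.14 to 0.54, limma adjusted p = 0.437).

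The receptor gene Trem2 and the glycoprotein gene Gpnmb were both higher in tumor macrophages. Trem2 had 90.8 to 112 normalised reads there with a median of 99.6, against 67.8, 66.3, 61.8, 59.1 and 36.4 in naive macrophages. The tumor libraries were tightly grouped and all lay above the naive ones. Trem2 was thus 1.74-fold higher (log2 0.80 ± 0.17 SE, limma adjusted p = 0.0044). Gpnmb had 178 to 285 normalised reads in tumor macrophages with a median of 242, against 58.9, 151, 158, 146 and 78.9 in naive macrophages. The groups did not overlap, with a log2 difference of 1.08 ± 0.25 (SE, limma adjusted p = 0.00751), or 2.11-fold. In eosinophils Trem2 gave 33 reads over the 7 tumor libraries and 4 over the naive pair. Gpnmb had 2.15 to 39.9 normalised reads in tumor eosinophils with a median of 13.9, against 9.86 and 14.5 in naive eosinophils. The tumor libraries spread to both sides of the naive pair (log2 difference 0.05, 95% interval -1.89 to 1.996).

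**Figure D3:**
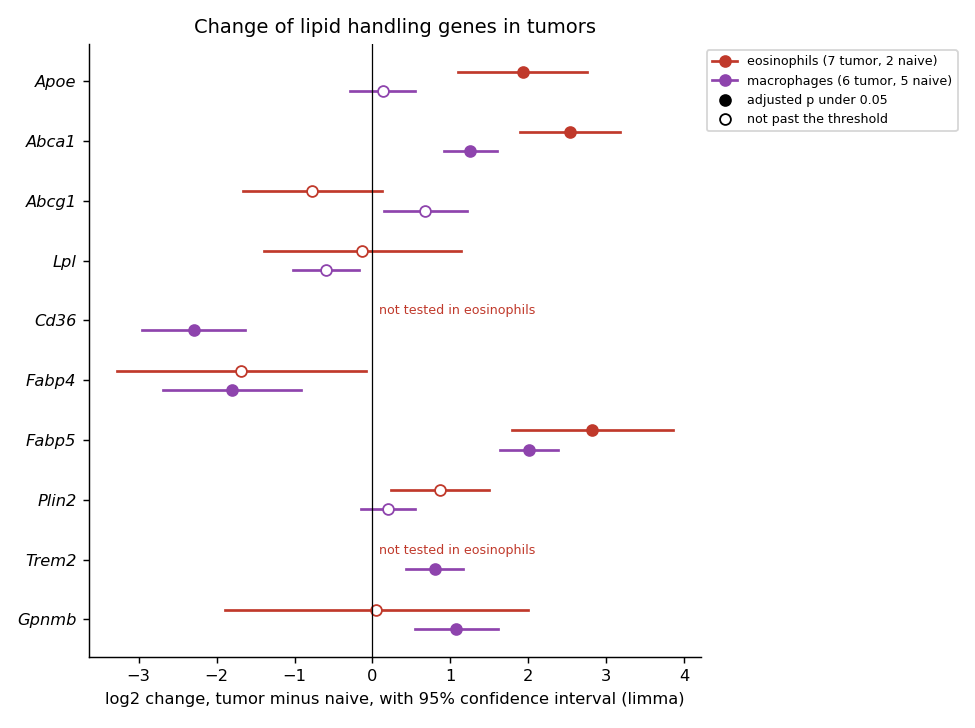
Log2 difference (tumor over naive, limma on log2(value + 1)) of each gene in eosinophils and in macrophages, with 95% intervals. Filled points passed an adjusted p of 0.05 and open points did not. A positive value means higher in tumor libraries. Abca1 is at 2.54 in eosinophils and 1.26 in macrophages, Apoe at 1.93 and 0.13, and the widest interval belongs to Gpnmb in eosinophils.

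Whether the tumor difference itself differed between the cell types was tested on the recovered reads of all 20 libraries, scaled together. It did for 2 of the 10 genes, Apoe and Abca1, both with the larger rise in eosinophils, while 3.9% of all 15600 genes tested were called (1.79% higher, 2.11% lower). The eosinophil difference exceeded the macrophage difference by 1.69 ± 0.42 on the log2 scale for Apoe (SE, limma adjusted p = 0.0246) and by 1.18 ± 0.30 for Abca1 (SE, limma adjusted p = 0.0289). Both calls rest on naive eosinophil library 2, without which the adjusted p was 0.303 for Apoe and 0.146 for Abca1, and neither was called by limma-voom (0.0921 and 0.267) or with no filter on low values (0.0565 and 0.0556). The C1q subunits gave differences of the same kind, 2.19 ± 0.46 for C1qb and 1.91 ± 0.38 for C1qc (SE, limma adjusted p = 0.00817 and 0.00599). For Abcg1 the difference was -1.56 (95% interval -2.55 to -0.58, limma adjusted p = 0.0669), and it was called by edgeR (adjusted p = 0.0458) and DESeq2 (adjusted p = 0.0254). Fabp5, higher in tumor libraries of both, gave a difference of 0.75 (95% interval -0.13 to 1.62, limma adjusted p = 0.364). The interval of the difference ran from -1.69 to 2.54 for Cd36, from -1.62 to 2.07 for Trem2, from -1.60 to 1.57 for Fabp4 and from -2.97 to 0.69 for Gpnmb, so differences within these intervals were not resolved between these libraries.

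On the joint scale most of the genes were higher in macrophages than in eosinophils. In tumors 9 of the 10 were lower in eosinophils than in macrophages, against 23.3% of genes called lower and 41.7% called either way, and for each of the 9 no eosinophil library reached the lowest macrophage library, as for 11.7% of all genes tested (7.75% had every eosinophil library above). In naive colon 8 were lower, against 14.9% called lower and 28.9% called either way, and the groups of these 8 did not overlap, as in 40.5% of all genes tested (20.7% below, 19.8% above). The gap was wide for Apoe, which was 25.6-fold lower in tumor eosinophils than in tumor macrophages and 82.6-fold lower in naive eosinophils than in naive macrophages. Trem2 was 27.7-fold lower in tumors, with limma adjusted p = 5.56e-08. It was narrower for Abca1, at 3.11-fold lower in tumors and 7.04-fold lower in naive colon. Plin2 was 2.61-fold lower in tumors and 3.83-fold lower in naive colon. Fabp4 did not pass the test in either tissue (log2 -0.17, 95% interval -1.05 to 0.71 in tumors, and -0.15, 95% interval -1.47 to 1.17 in naive colon). Abcg1 was lower in eosinophils in tumors (log2 -1.31 ± 0.26 SE, limma adjusted p = 0.000362) and did not pass the test in naive colon (log2 0.26, 95% interval -0.56 to 1.07).

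The order of the 4 group means was shared by 6 genes: tumor macrophages, naive macrophages, tumor eosinophils and naive eosinophils, from high to low, for Apoe, Abca1, Fabp5, Plin2, Trem2 and Gpnmb. Not every step of this order was resolved. The macrophage groups overlapped for Apoe and Plin2 and the eosinophil groups for Gpnmb and Trem2, and Trem2 had 4 reads in naive eosinophils. For Abca1 the jointly scaled means were 2026, 786, 646 and 110.2 reads in that order, and the middle pair overlapped, with 462 to 807 in tumor eosinophils and 644 to 911 in naive macrophages. For Fabp5 they were 642, 149, 109 and 13.3, and the middle pair again overlapped. Lpl and Cd36 instead had tumor macrophages below naive macrophages, with means of 209 jointly scaled reads in tumor and 299 in naive macrophages for Lpl, and of 49.0 in tumor and 207 in naive macrophages for Cd36. For both genes the eosinophil groups came last and overlapped. The means of Fabp4 were ordered by tissue, at 7.59 in tumor macrophages and 7.06 in tumor eosinophils, against 30.7 in naive macrophages and 24.0 in naive eosinophils. Within each cell type Fabp4 passed the filter only through its naive libraries, so its tumor means were bound to be lower. The eosinophil difference did not pass the test. Tumor eosinophils (up to 13.2) also overlapped naive macrophages (down to 12.5). Abcg1 was highest in tumor macrophages (129), followed by naive eosinophils (94.6), naive macrophages (77.7) and tumor eosinophils (50.7), and its naive groups overlapped.

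Across the 20 libraries, the genes whose log2 levels ran most like each member's were named as a description. All 20 points share the split between 2 cell types, which raises r for any gene that differs between them. Apoe ran closest to the complement genes C1qc (Pearson r = 0.996) and C1qb (r = 0.994). Both Abca1 (r = 0.969) and Fabp5 (r = 0.951) ran closest to Cstb, which encodes the cathepsin inhibitor cystatin B, followed by Rab32 for Abca1 (r = 0.952) and Serpina3g for Fabp5 (r = 0.942). Lpl ran with Ms4a7 (r = 0.974) and with Ccr2 (r = 0.963), the chemokine receptor of monocytes. Fabp4 ran with C1qtnf3 (r = 0.885) and with Cxcl12 (r = 0.881), a chemokine of stromal cells. Plin2 ran with Pdia3 (r = 0.975) and the lysosomal phosphatase Acp2 (r = 0.974), and Cd36 with Pid1 (r = 0.949) and Slc9a9 (r = 0.945). Trem2 ran with the lysosomal nucleoside transporter Slc29a3 and with Syngr2 (both r = 0.966), Gpnmb with Sh3bgrl (r = 0.943) and C6 (r = 0.938), and Abcg1 with the tetraspanin Cd63 (r = 0.895) and Abi1 (r = 0.890).

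The rest of each pathway was read from 8 lists of related genes, against medians of 0.03 in macrophages and 0.01 in eosinophils over all genes tested. Counts of calls on these lists stand against the shares over all genes tested, 17.1% in macrophages and 4.61% in eosinophils. Adjusted p-values of list genes are limma's over all genes tested. Among 21 genes of lipoprotein and fatty acid uptake, 17 were tested in macrophages, with 2 higher and 3 lower, and a median log2 difference of 0.15. The scavenger receptor Msr1 averaged 948 ± 190.0 normalised reads in tumor and 439.9 ± 73.8 in naive macrophages (SD; log2 1.10, limma adjusted p = 0.000235), and the oxidised lipoprotein receptor Olr1 averaged 36.2 ± 24.6 in tumor and 8.19 ± 9.55 in naive macrophages (SD; log2 2.18, adjusted p = 0.0139). Olr1 reached the filter's 10 normalised reads in all 6 tumor libraries but in 1 naive library, so the tumor libraries brought it into the test. Among the lower genes were the high-density lipoprotein receptor Scarb1 (log2 -0.69, adjusted p = 0.0211) and the scavenger receptor Stab1 (log2 -0.76, adjusted p = 0.0258). Of the 16 genes tested in eosinophils, with a median of 0.31, 1 was called: Cxcl16, a scavenger receptor and chemokine, averaged 158 ± 51.5 in tumor and 44.0 ± 35.1 in naive eosinophils (SD; log2 2.02, adjusted p = 0.0301). The tumor difference in eosinophils minus that in macrophages was 1.77 for Cxcl16 (adjusted p = 0.0185) and -3.17 for Olr1 (adjusted p = 0.0384).

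Of the 27 genes of droplet storage and lipolysis, 19 were tested in macrophages, with a median of 0.16. Of these 3 were higher and 1 lower, against 8.5% higher and 8.59% lower of all genes tested. The triglyceride synthase Dgat1 averaged 482 ± 148 normalised reads in tumor and 135 ± 8.67 in naive macrophages (SD; log2 1.77, adjusted p = 1.45e-05). Hilpda, which encodes a droplet protein that restrains lipolysis, averaged 1313 ± 519 in tumor and 555 ± 148 in naive macrophages (SD; log2 1.19, adjusted p = 0.00255), and Gpat4, an enzyme of glycerolipid synthesis, differed by 0.39 (adjusted p = 0.0445). Mgll, the monoacylglycerol lipase, was lower, at 3.497 ± 2.12 in tumor and 22.3 ± 12.5 in naive macrophages (SD; log2 -2.36, adjusted p = 0.00221). It passed the filter only through its naive libraries, since no tumor library exceeded 6.68, and so was bound to differ. In eosinophils, 1 of 22 tested genes was called (median 0.10), against 4.61% of all genes tested. It was Dgat2, the other triglyceride synthase, at 391 ± 104 in tumor and 78.6 ± 13.5 in naive eosinophils (SD; log2 2.27, adjusted p = 0.00287). The tumor difference in eosinophils minus that in macrophages was 2.30 for Dgat2 (adjusted p = 0.000932), -2.88 for G0s2, a brake on triglyceride lipase (adjusted p = 0.0165), and -1.38 for the acyl-CoA synthetase Acsl4 (adjusted p = 0.0371). G0s2 was too low to be tested in macrophages alone, with means of 11.6 normalised reads in tumor and 1.77 in naive macrophages. It was not called in eosinophils, so its -2.88 rests in part on macrophage values near the detection limit.

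Of the 18 LXR receptors and targets, 15 were tested in macrophages, with a median of 0.12. Of these 5 were higher and 2 lower, against 8.5% higher and 8.59% lower of all genes tested. The oxysterol receptor gene Nr1h3 averaged 43.1 ± 7.42 in tumor and 16.8 ± 5.03 in naive macrophages (SD; log2 1.35, adjusted p = 0.00125). Higher with it were the fatty acid desaturases Scd2 (log2 1.51, adjusted p = 2.24e-05) and Scd1 (log2 1.48, adjusted p = 0.0188), the lipogenic regulator Srebf1 (log2 1.15, adjusted p = 0.00726) and the fatty acid synthase Fasn (log2 0.65, adjusted p = 0.00941). The phospholipid transfer protein Pltp was lower, at 1730 ± 307 in tumor and 4111 ± 1196 in naive macrophages (SD; log2 -1.22, adjusted p = 0.000442), as was the receptor partner Rxrb (log2 -0.54, adjusted p = 0.0362). In eosinophils 14 were tested, with a median of 0.16, and 4.61% of all genes tested were called there. Scd2 was higher (475 ± 191 in tumor and 124 ± 52.5 in naive eosinophils, SD; log2 1.88, adjusted p = 0.0339) and the corepressor Ncor1 was lower (log2 -1.20, adjusted p = 0.0292).

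The list of PPAR receptors, targets and fatty acid oxidation, 20 genes, had a median of -0.13 over 18 tested genes in macrophages, where 8 of the 18 differences were positive, and of -0.44 over 17 in eosinophils, where 6 were. The thiolase Acaa2 was lower in tumor macrophages (58.4 ± 9.36 in tumor and 84.3 ± 12.9 in naive, SD; log2 -0.52, adjusted p = 0.0407), a call that most of the alternatives ended. In eosinophils limma called 0 of the 17, of which 6 had an unadjusted p under 0.05, as had 19.7% of all genes tested in eosinophils. For the acyl-CoA dehydrogenase Acadm, the eosinophil difference minus the macrophage one was -1.59 (adjusted p = 0.0265).

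All 22 genes of sterol synthesis were tested in both cell types. The median was 0.37 in macrophages, where 20 of the 22 differences were positive, and 0.60 in eosinophils, where 19 were. In macrophages 6 were higher and none was lower, against 8.5% higher and 8.59% lower of all genes tested. Pmvk, a kinase of the mevalonate pathway, averaged 172 ± 25.3 in tumor and 90.1 ± 9.07 in naive macrophages (SD; log2 0.92, adjusted p = 0.0004), and the synthesis enzymes Hmgcs1 (log2 0.89), Fdft1 (log2 0.65), Msmo1 (log2 0.56) and Cyp51 (log2 0.42) had adjusted p of 0.00332 to 0.0426. In eosinophils 1 of the 22 was called, against 4.61% of all genes tested. It was Mvd, a mevalonate pathway enzyme, at 133 ± 36.1 in tumor and 31.4 ± 17.1 in naive eosinophils (SD; log2 2.11, adjusted p = 0.0123). Its difference minus that in macrophages was 1.70 (adjusted p = 0.0322).

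Of the 20 partners of TREM2 and genes of lipid-associated macrophages, 19 were tested in each cell type, with medians of 0.09 in macrophages and 0.08 in eosinophils. In tumor macrophages 6 were higher and 1 was lower, against 8.5% higher and 8.59% lower of all genes tested. The shares over all genes tested in eosinophils were 2.42% higher and 2.19% lower. Spp1, which encodes osteopontin, averaged 464 ± 137 in tumor and 28.1 ± 8.62 in naive macrophages (SD; log2 4.004, adjusted p = 5.7e-08). Trem1, a receptor of inflammatory myeloid cells, averaged 820.2 ± 321 in tumor and 112 ± 39.0 in naive macrophages (SD; log2 2.82, adjusted p = 6.55e-06). The lysosomal protease Ctsd (log2 1.49), the tetraspanin Cd63 (log2 0.97) and the Trem1 relatives Trem3 (log2 2.11) and Treml4 (log2 0.95) were higher too, and the galectin Lgals1 was lower (log2 -0.58). In eosinophils 3 were higher: Spp1 (20.4 ± 9.59 in tumor and 1.81 ± 2.56 in naive, SD; log2 3.19, adjusted p = 0.0242), Trem1 (log2 2.44, adjusted p = 0.0302) and the lysosomal protease Ctsb (log2 1.32, adjusted p = 0.0293). Spp1 passed the filter in eosinophils only through tumor libraries, with at most 3.62 normalised reads in the naive ones, and so was bound to differ there. Neutrophils express Trem1 too, and 5 of 8 tested neutrophil markers were called higher in tumor macrophages, whose neutrophil list summed to 70.8 to 630 CPM in tumor and 24.9 to 45.4 CPM in naive libraries. The part of neutrophil RNA in the Trem1 values was not tested. The eosinophil difference minus the macrophage one was -1.57 for Cd63 (adjusted p = 0.00273) and -3.97 for the cystatin Cst7 (adjusted p = 0.00623). Cst7 did not pass the filter on low values in macrophages and was not called in eosinophils. Its highest eosinophil values were 18.95 (tumor) and 38.3 (naive) normalised reads.

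Few of the 11 partners and relatives of Lpl were expressed, with 3 tested in macrophages and 8 in eosinophils. Limma called 0 of them in either cell type, and 1 in each had an unadjusted p under 0.05, against 30.3% of all genes tested in macrophages and 19.7% in eosinophils. Of the 10 relatives of the fatty acid binding proteins, 2 were tested in macrophages and 5 in eosinophils. Of the 5, 1 was called higher in tumor libraries, as were 2.42% of all genes tested in eosinophils.

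Most calls of list genes in eosinophils hung on the 2 naive libraries. Leaving out naive library 1 ended those of Cxcl16, Spp1 and Trem1, and leaving out naive library 2 ended those of Ncor1, Scd2, Mvd, Ctsb and Trem1. Leaving out a single tumor library put the adjusted p of Cxcl16, Ncor1, Scd2, Ctsb or Trem1 at 0.0502 to 0.0589 in 13 cases, while Dgat2 was called in each such fit (adjusted p 0.00155 to 0.0262). In macrophages, leaving out 1 library ended the call of Scarb1 in 2 of 11 fits, of Stab1 and Treml4 in 6 each, of Rxrb in 7, of Gpat4 and Cyp51 in 8 each and of Acaa2 in 9, with adjusted p of up to 0.104. Limma-voom with quality weights ended the eosinophil calls of all the list genes named here but Dgat2. Stab1, Scd1, Fasn, Rxrb, Hmgcs1, Cyp51, Trem3, Treml4 and Lgals1 were named after their values were seen, to complete the counts.

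**Figure D4:**
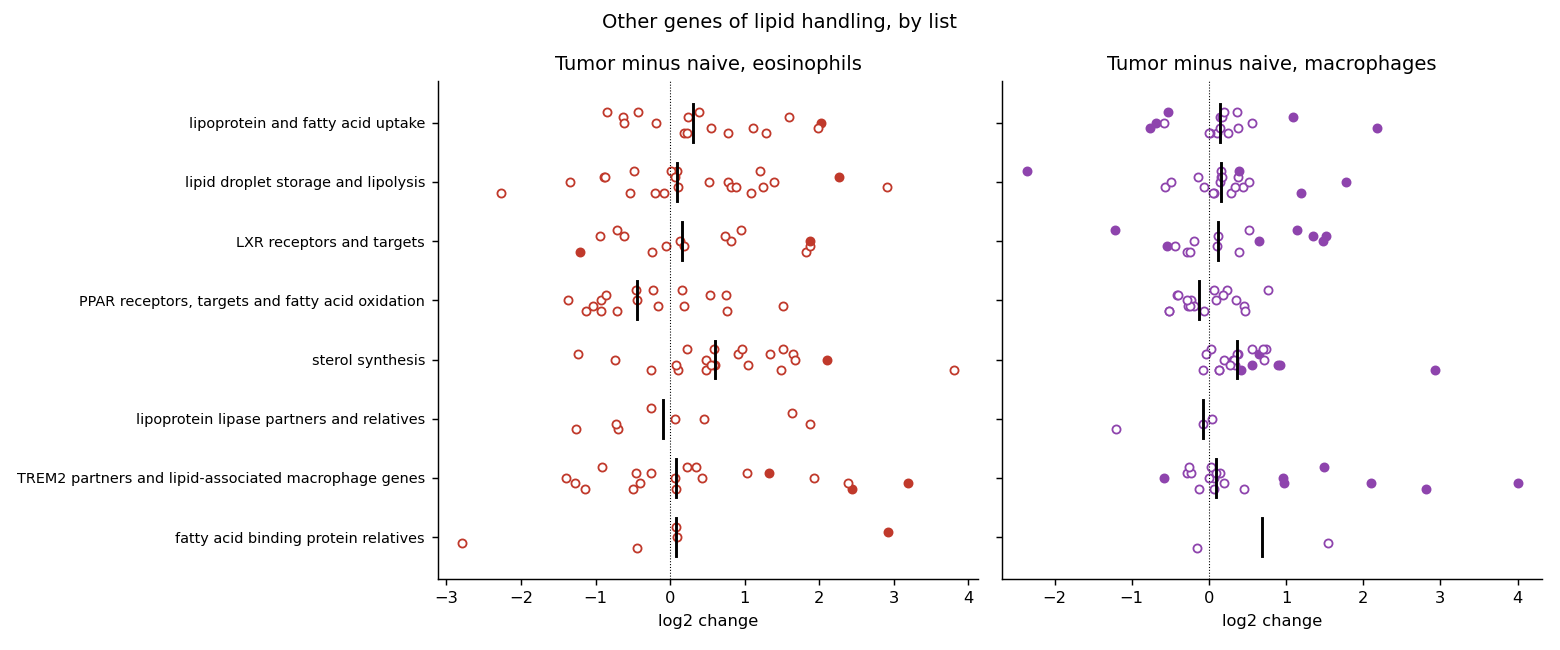
Log2 difference (tumor over naive) of every tested gene of the 8 pathway lists, in eosinophils and in macrophages. Filled points passed an adjusted p of 0.05 and bars are medians. The sterol synthesis list has medians of 0.60 in eosinophils and 0.37 in macrophages, and the PPAR list -0.44 and -0.13.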

How the data were processed

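Per the labels' protocols, RNA of sorted colonic eosinophils and macrophages was measured by CEL-Seq, and every sample had 3 technical replicates that differed in their primer pools. No source used here gives how these were combined. Tools in the submitters' processing notes are TopHat2 2.1.0, Bowtie2 2.2.6, HTSeq 0.6.1, DESeq2 1.14.1, FastQC 0.11.5 and Trim Galore, with the build GRCm38.p5. The gene annotation, the strand setting and the treatment of shared reads are likewise not stated. The authors deposited 1 table per cell type of normalised signal, gene read counts divided by a size factor per library. All 374526 values above 0 (100.0% in each library) were whole multiples of 1 read's worth within 0.1 read, so the reads were recovered. Each library detected 16264 to 20926 genes. Left out were 27 entries with a bare number for a name, with up to 0.1323% of reads.

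Each cell type was fitted alone with limma 3.58.1 in R 4.3.3 (eBayes with a trend, two-sided) on log2(value + 1) of the deposited values, for genes at 10 or more in at least 2 eosinophil or 5 macrophage libraries. Such fold changes understate those of low genes. Comparisons between cell types used the recovered reads, scaled together by TMM (edgeR 4.0.16) and filtered at 10 in at least 2 libraries. The Benjamini-Hochberg adjustment ran over all genes tested, with 0.05 as the threshold for adjusted p. Run on the recovered reads, edgeR's quasi-likelihood test called 531 genes for tumor against naive eosinophils, 1944 for tumor against naive macrophages and 588 for the difference of these, against limma's 598, 1968 and 609. DESeq2 1.42.0, limma-voom, other pseudocounts (0.5 and 5), no filter, other scaling, a replicate block and leaving out each library were alternatives. The fits were tested on simulated data, with 100 genes changed by a log2 difference of 1 and 100 by 2, all with means above 100 scaled reads. The eosinophil fit recovered 2 and 49 of these, the macrophage fit 80 and 99, and the difference between cell types 6 and 73. A gene not called in eosinophils may therefore still differ. Recovery of lower genes, such as Abcg1, Lpl, Fabp4 and Gpnmb in eosinophils, was not measured. The genes, the lists and the tests were chosen with earlier results of these data known. Named were all 10 genes, up to 4 called genes per list and comparison with the smallest p, the 2 genes with the highest correlation to each, and markers called between the groups or whose sums moved with them. A few list genes are counted but not reported here by name. Coordinates are those of GENCODE M21 (GRCm38), promoter windows those of RefSeq (GRCm38.p6). Intervals cover 95%.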

Additional observations from a re-analysis of the deposited data

Results flagged for a closer look

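In 6 of 30 sets of 1 gene in 1 group, a library stood far from the others by Dixon's criterion, which chance alone meets about 1 time in 20. In tumor eosinophils, Abcg1 was at 49.8 normalised reads in library 4, against 28.1 to 35.7 in the others, and Cd36 was at 9.48 in library 5, against 0 to 3.07. In tumor macrophages, Cd36 was at 93.4 in library 6, against 21.5 to 32.7 in the others. In naive macrophages, Fabp4 was at 57.7 and Trem2 at 36.4 in library 5, against 10.7 to 21.9 and 59.1 to 67.8 in the others, and Plin2 was at 719 in library 1, against 971 to 1072.

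The tumor effect differed between the cell types by test for 2 genes. The eosinophil effect minus the macrophage effect was 1.69 for Apoe (limma adjusted p = 0.0246) and 1.18 for Abca1 (limma adjusted p = 0.0289) on the log2 scale.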

How the results depend on the processing

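The macrophage calls of 6 of the 10 genes (Fabp5, Abca1, Trem2, Gpnmb, Cd36 and Fabp4) were kept, with their directions, in all 114 alternative values. Of these genes, Fabp4 passed the filter there only through its naive libraries and was bound to differ, so its kept call adds no support. All directions and calls between tumor eosinophils and tumor macrophages were kept in 280 values. Of the 76 values of the other 4 genes in macrophages 7 changed, all of them of Lpl, which was called in 7 of its 19 alternatives. Genes called between tumor and naive eosinophils numbered 1361 with DESeq2, 197 with limma-voom and 93 to 951 with 1 library left out, where 1 to 3 of the 10 genes were called. For the difference between the cell types the counts were 1049 with DESeq2, 137 with limma-voom, 399 with no filter on low values and 165 to 1685 with 1 library left out. Of the 10 genes 0 were called for this difference with limma-voom and with no filter, and 0 to 3 with 1 library left out. Limma-voom called 2596 genes between naive eosinophils and naive macrophages, and Gpnmb was not called there (adjusted p = 0.0517).

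Replicate numbers are shared by the labels of the groups, but libraries with the same number did not deviate together in macrophages (r = -0.31 to 0.06, 5 pairs). In eosinophils r was 0.12 to 0.13 in 2 pairs, each of which correlated best with its own number. Deviations were taken from the group mean, so those of the 2 naive eosinophil libraries mirror each other. These 2 pairs are therefore not independent and cannot decide whether the libraries were paired. With the replicate number as a block, 1143 genes were called in eosinophils and 1230 in macrophages, and 1 of the 10 genes was called for the difference, where Abca1 had an adjusted p of 0.0911. Lpl in macrophages was called under the block (adjusted p = 0.0149). Median-of-ratios scaling moved the median of all genes in the difference by 0.13, and Apoe (1.83) and Abca1 (1.31) were called with it.

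Values that changed sign belonged to differences that did not pass the test. Lpl in eosinophils was 0.0101 with edgeR and -0.53 to 0.27 with 1 library left out, and Gpnmb in eosinophils was -0.22 to 0.40. For the difference between the cell types, Fabp4 was 0.0575 with a pseudocount of 5, 0.24 with edgeR, 0.31 with DESeq2, 0.10 with median-of-ratios scaling and -0.34 to 0.24 with 1 library left out, Trem2 was -0.32 with a pseudocount of 5 and -0.88 to 1.33 with 1 library left out, and Cd36 was -0.43 to 1.29. Between naive eosinophils and naive macrophages, Abcg1 was -0.32 to 0.83 and Fabp4 -0.41 to 0.17 with 1 library left out. Fabp4 did not pass the filter in eosinophils when a naive eosinophil library was left out, so these fits give it no value. Apart from the fewer samples of the fits that leave out a library, the cause of these changes was not tested. With 2 naive eosinophil libraries and under 50 reads of Cd36, Trem2 and Fabp4 in each eosinophil group, depth limits what could be seen of these 3 genes.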
